A study of Mus musculus with 6 samples.

Results

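The genes described here are 10 transcripts of tissue macrophages in newborn mouse epidermis: the complement C1q chains C1qa, C1qb and C1qc, and the macrophage lineage genes Csf1r, Adgre1, Cx3cr1, Mrc1, Lyz2, Cd68 and Aif1. They are 10 of the 55487 genes in the deposited tables, and each symbol matched a single Ensembl identifier. They were chosen as macrophage genes with the levels of these same 6 libraries in view. Their differences between the groups are therefore given as a description, without p-values.

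The study compared epidermis of Znf750 cKO pups with epidermis of control pups at postnatal day 0, with 3 libraries of each. Znf750, listed under its mouse symbol Zfp750, encodes a transcription factor that acts in keratinocyte differentiation. The cells came from back skin that was split with dispase and dissociated with trypsin, and no cell sort is named in the labels. The labels do not name the Cre driver, the alleles, the strain or the controls' genotype, nor do they say whether a library was a single pup, so p-values measure the spread between these libraries, which may be technical. The values are FPKM, sequenced fragments scaled to transcript length and to library size. Zfp750 stood at 0.99, 0.83 and 1.47 FPKM in Znf750 cKO libraries 1, 2 and 3, against 44.8, 32.0 and 34.9 FPKM in control libraries 1, 2 and 3. The keratinocyte genes Krt5 and Krt10 averaged 6740 and 11490 FPKM in Znf750 cKO and 6632 and 9563 FPKM in control, so the labelled epidermal origin stood out in every library. Steps in the FPKM values place the depth at about 35.4, 26.6 and 23.0 M reads in Znf750 cKO and 28.4, 21.5 and 23.4 M reads in control.

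Macrophages settle in the skin before birth, and in the epidermis their progeny become Langerhans cells, the resident phagocytes and antigen-presenting cells of that layer. They depend on signalling through the receptor encoded by Csf1r, for which keratinocytes supply the ligand interleukin 34. C1q is the recognition unit of the classical complement pathway, built from an A, a B and a C chain, and tissue macrophages and dendritic cells are a main source of it. It binds antibody complexes, dying cells and microbes, and then activates the proteases C1r and C1s.

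The start regions of the members are shown first, because the C1q chains lie side by side and their RNA differed together. RefSeq promoter windows on GRCm38.p6, which run from 250 bases before to 50 bases after a start site, were used for 7 of the 10 members. C1qa and Adgre1 had no entry, and Csf1r was left out, so the member counts below do not cover these genes. A 6-base core of sites for PU.1, the lineage factor encoded by Spi1, was searched as GAGGAA on both strands. It occurred in 5 of the 7 windows, those of Mrc1, C1qb, C1qc, Cd68 and Aif1, and in 28.3% of all 32851 windows. The longer GAGGAAGT, which contains the core, occurred in the C1qc window and in 3.20% of all windows. An interferon factor motif of 10 letters was found in the Aif1 window and 3.44% of all, the AP-1 motif TGANTCA in the Cd68 window and 7.81% of all, and TATAAA in 0 of the 7 windows and 13.6% of all. A match is a run of letters and not evidence of binding. The windows of both C1q chains with an entry are printed 5′ to 3′ with those of Mrc1 and Cd68, which had one of the largest fold differences and the smallest among the members. Capitals mark GAGGAA or its reverse complement, with 1 match in C1qb at position -30 from the start site, 1 in C1qc at position -193, 3 in Mrc1 and 2 in Cd68.
C1qb, chr4:136886151-136886450, minus strand: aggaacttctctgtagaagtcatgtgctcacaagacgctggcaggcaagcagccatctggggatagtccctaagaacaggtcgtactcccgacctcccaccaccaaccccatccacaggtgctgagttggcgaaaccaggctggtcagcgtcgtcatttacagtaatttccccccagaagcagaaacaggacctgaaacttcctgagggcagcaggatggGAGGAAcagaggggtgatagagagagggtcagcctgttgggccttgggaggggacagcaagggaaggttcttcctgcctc
C1qc, chr4:136892865-136893164, minus strand: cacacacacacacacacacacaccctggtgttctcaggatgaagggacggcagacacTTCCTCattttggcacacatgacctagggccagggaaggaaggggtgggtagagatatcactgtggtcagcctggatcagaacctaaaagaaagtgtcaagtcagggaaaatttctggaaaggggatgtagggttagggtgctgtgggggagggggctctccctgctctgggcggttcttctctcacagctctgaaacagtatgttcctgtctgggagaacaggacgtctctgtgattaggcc
Mrc1, chr2:14229164-14229463, plus strand: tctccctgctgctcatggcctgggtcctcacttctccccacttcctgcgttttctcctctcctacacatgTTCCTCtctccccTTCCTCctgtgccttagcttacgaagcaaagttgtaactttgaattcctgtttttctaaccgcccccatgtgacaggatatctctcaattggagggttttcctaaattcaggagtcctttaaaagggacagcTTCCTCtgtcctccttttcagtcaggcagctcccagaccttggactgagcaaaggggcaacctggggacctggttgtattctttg
Cd68, chr11:69666121-69666420, minus strand: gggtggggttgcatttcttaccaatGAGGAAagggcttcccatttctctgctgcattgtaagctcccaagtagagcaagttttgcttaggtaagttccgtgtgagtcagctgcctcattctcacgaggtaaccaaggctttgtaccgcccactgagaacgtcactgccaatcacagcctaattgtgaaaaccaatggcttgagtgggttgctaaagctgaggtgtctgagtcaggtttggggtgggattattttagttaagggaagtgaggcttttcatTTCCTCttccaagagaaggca

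In each of the 10 the highest Znf750 cKO library lay below the lowest control library, as in 19.7% of all tested genes, and nothing is read from this because the members were picked on this contrast. Each of the 10 was above 0 in all 6 libraries. Their summed level was 16.7, 15.7 and 18.2 FPKM in Znf750 cKO libraries 1 to 3, against 149, 104 and 88.3 FPKM in control libraries 1 to 3. The ratio of group means ran from 2.66-fold lower for Cd68 to 15.2-fold lower for Lyz2, with a median of 7.80-fold. Because RNA was measured in bulk, fewer macrophages and less of these RNAs in each macrophage cannot be told apart.

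**Figure D1:**
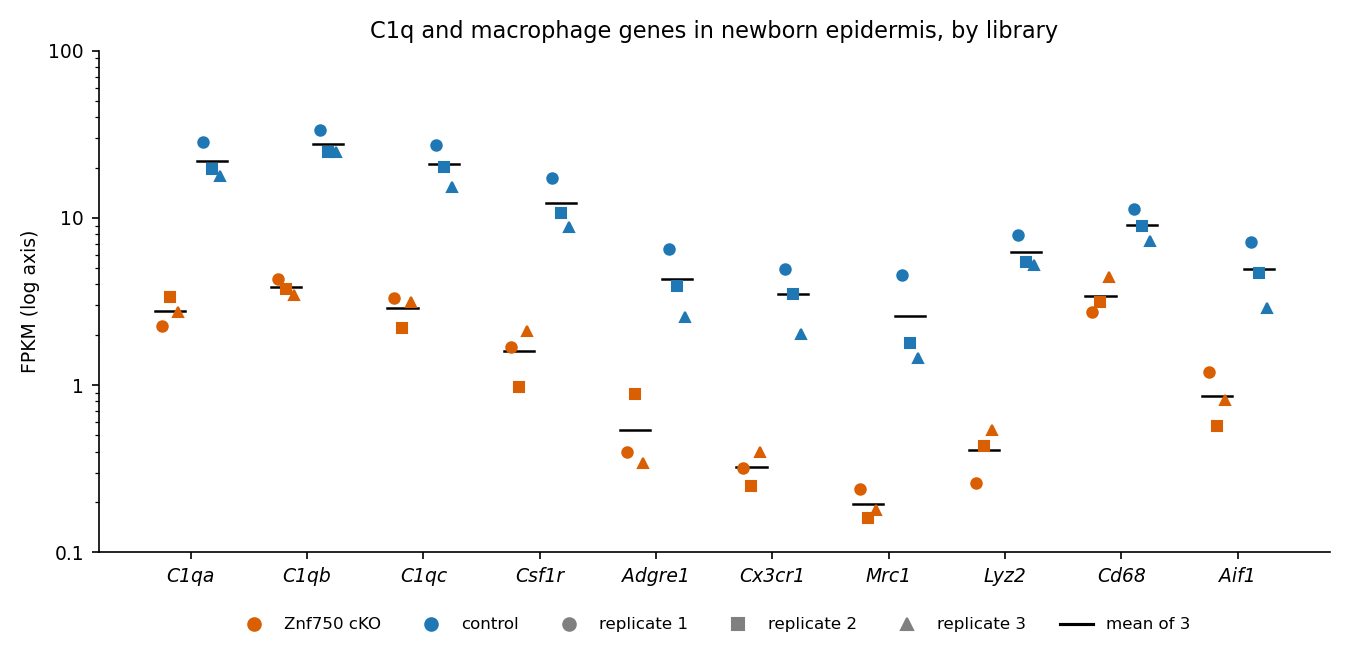
FPKM of the 10 genes in each library on a log axis, with Znf750 cKO in orange left of control in blue; symbols give the replicate number and black lines the mean of 3 libraries. The groups do not overlap in any of the 10 genes, and control replicate 1 is the highest control for each.

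The C1q chains were the most abundant of the 10 in control. C1qa (ENSMUSG00000036887), the A chain, had 2.25, 3.37 and 2.73 FPKM in Znf750 cKO libraries, against 28.5, 19.6 and 17.9 FPKM in control libraries. C1qb (ENSMUSG00000036905), the B chain, had 4.29, 3.74 and 3.48 FPKM in Znf750 cKO libraries, against 33.7, 24.9 and 24.8 FPKM in control libraries. C1qc (ENSMUSG00000036896), the C chain, had 3.33, 2.19 and 3.14 FPKM in Znf750 cKO libraries, against 27.3, 20.3 and 15.4 FPKM in control libraries. The groups lay far apart for each chain, with the nearest libraries of the groups 5.32-fold apart for C1qa, 5.79-fold for C1qb and 4.62-fold for C1qc. The means were 2.78 ± 0.56 FPKM in Znf750 cKO and 21.98 ± 5.66 FPKM in control for C1qa, 3.84 ± 0.41 and 27.8 ± 5.10 FPKM for C1qb, and 2.89 ± 0.61 and 20.99 ± 6.00 FPKM for C1qc (SD, n = 3 each). On the log2(FPKM + 1) scale, which understates differences of low genes, Znf750 cKO minus control was -2.59 (SE 0.20) for C1qa, -2.57 (SE 0.15) for C1qb and -2.48 (SE 0.22) for C1qc.

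The chains were also compared with each other within each library. C1qb over C1qa was 1.91, 1.11 and 1.27 in Znf750 cKO libraries and 1.18, 1.27 and 1.39 in control libraries. C1qc over C1qa ran from 0.65 to 1.48 in Znf750 cKO libraries and from 0.86 to 1.03 in control libraries. Both ratios overlapped between the groups and spread more in Znf750 cKO, where the chains rest on about 59 to 150 reads each per library, against 394 to 947 in control. The chains together made up 59.1%, 59.3% and 51.5% of the summed FPKM of the 10 genes in Znf750 cKO libraries, against 59.98%, 62.5% and 65.8% in control libraries.

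The C1q genes lie within 18675 bases of chromosome 4 on GRCm38, all on the minus strand. C1qb spans 136880129 to 136886187, C1qc spans 136889804 to 136893065, and C1qa spans 136895917 to 136898803. Within 100000 bases on either side the annotation holds 3 further genes with values. Ephb2, a receptor tyrosine kinase, averaged 0.83 FPKM in Znf750 cKO and 1.18 FPKM in control (log2 difference -0.27, limma adjusted p = 0.51). Zbtb40, a zinc finger gene, averaged 1.94 FPKM in Znf750 cKO and 1.77 FPKM in control (log2 difference 0.08, limma adjusted p = 0.87). Epha8 was listed at 0 in all libraries but control replicate 1, where it had 0.04 FPKM. These neighbours were named after their values were seen, and none of them was past the threshold.

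Csf1r, the receptor for colony stimulating factor 1 and interleukin 34, had 1.69, 0.98 and 2.10 FPKM in Znf750 cKO libraries, against 17.3, 10.7 and 8.78 FPKM in control libraries. The groups did not overlap, and the means of 1.59 ± 0.57 FPKM in Znf750 cKO and 12.2 ± 4.46 FPKM in control differed 7.70-fold (log2 difference -2.33, SE 0.26). Its ratio to C1q was alike in the groups: the summed chains over Csf1r were 5.84, 9.49 and 4.45 in Znf750 cKO libraries and 5.18, 6.07 and 6.62 in control libraries. Csf1r (ENSMUSG00000024621, chromosome 18) overlaps Hmgxb3 on the opposite strand, which averaged 7.12 FPKM in Znf750 cKO and 5.81 FPKM in control (limma adjusted p = 0.30). No source used here says whether strand was kept, and without it reads of such a pair cannot be told apart.

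The other surface receptors had lower levels than Csf1r in both groups. Adgre1 (ENSMUSG00000004730, chromosome 17), which encodes the F4/80 antigen, had 0.40, 0.88 and 0.34 FPKM in Znf750 cKO libraries, against 6.51, 3.89 and 2.56 FPKM in control libraries. Cx3cr1 (ENSMUSG00000052336, chromosome 9), the fractalkine receptor, had 0.32, 0.25 and 0.40 FPKM in Znf750 cKO libraries, against 4.93, 3.50 and 2.02 FPKM in control libraries. Mrc1 (ENSMUSG00000026712, chromosome 2), the mannose receptor, had 0.24, 0.16 and 0.18 FPKM in Znf750 cKO libraries, against 4.57, 1.79 and 1.45 FPKM in control libraries. In all 3 genes every Znf750 cKO library lay below 1 FPKM and every control library above it. The ratios of means were 8-fold lower for Adgre1, 10.8-fold lower for Cx3cr1 and 13.5-fold lower for Mrc1, with log2 differences of -1.74 (SE 0.29), -1.71 (SE 0.25) and -1.496 (SE 0.31). Mrc1 had the widest spread among controls, with replicate 1 at 3.15 times replicate 3. The annotated span of Cx3cr1 overlaps several genes, among them Wdr48 at 16.2 FPKM in Znf750 cKO and 15.6 FPKM in control.

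The secreted and intracellular products include the largest and the smallest fold difference. Lyz2 (ENSMUSG00000069516, chromosome 10), the lysozyme of phagocytes, had 0.26, 0.43 and 0.54 FPKM in Znf750 cKO libraries, against 7.95, 5.47 and 5.24 FPKM in control libraries. Its means of 0.41 ± 0.14 FPKM in Znf750 cKO and 6.22 ± 1.503 FPKM in control were 15.2-fold apart (log2 difference -2.34, SE 0.19), with about 11, 14 and 15 reads behind the Znf750 cKO values. Its close copy Lyz1 was listed at 0 in all 6 libraries, and how reads shared by the pair were assigned is not known.

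Cd68 (ENSMUSG00000018774, chromosome 11), a lysosomal membrane protein of phagocytes, had 2.73, 3.12 and 4.44 FPKM in Znf750 cKO libraries, against 11.3, 8.89 and 7.25 FPKM in control libraries. Its groups came closest of the 10, with the nearest libraries 1.63-fold apart and the means, 3.43 ± 0.90 FPKM in Znf750 cKO and 9.13 ± 2.02 FPKM in control, 2.66-fold apart (log2 difference -1.19, SE 0.20). Cd68 over Csf1r was 1.61, 3.18 and 2.11 in Znf750 cKO libraries, against 0.65, 0.83 and 0.83 in control libraries. That ratio did not overlap between the groups, in contrast to the ratio of C1q to Csf1r. Lyz2 over Csf1r did not overlap either, in the other direction. It was 0.15, 0.44 and 0.26 in Znf750 cKO libraries, against 0.46, 0.51 and 0.60 in control libraries. The nearest libraries, at 0.44 and 0.46, were close, and the value of 0.44 rests on about 14 Lyz2 reads. Cx3cr1 over Csf1r overlapped. Aif1 (ENSMUSG00000024397, chromosome 17), the calcium-binding protein Iba1, had 1.19, 0.57 and 0.82 FPKM in Znf750 cKO libraries, against 7.22, 4.68 and 2.88 FPKM in control libraries. Its groups did not overlap, and its means were 5.73-fold apart (log2 difference -1.62, SE 0.28).

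In order of mean FPKM, the Znf750 cKO libraries ran C1qb, Cd68, C1qc, C1qa, Csf1r, Aif1, Adgre1, Lyz2, Cx3cr1 and Mrc1, and the control libraries ran C1qb, C1qa, C1qc, Csf1r, Cd68, Lyz2, Aif1, Adgre1, Cx3cr1 and Mrc1. C1qb led and Mrc1 came last in both, and Cd68 stood above C1qc and C1qa in Znf750 cKO but below both in control. Neighbours in the Znf750 cKO order overlapped in their libraries, except C1qa with Csf1r and Cx3cr1 with Mrc1, and neighbours in the control order all overlapped. Among controls the 10 genes shared an order: replicate 1 was above replicate 2 and replicate 2 above replicate 3 in all 10, where 14.4% of tested genes had that order. In the Znf750 cKO libraries the summed level of the 10 varied little and no replicate was highest throughout.

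Genes were tested across the whole table with limma on log2(FPKM + 1), over the 13688 genes that reached 1 FPKM in 3 or more libraries. A gene counts as past the threshold, and is said to have fallen or risen, at a Benjamini-Hochberg adjusted p under 0.05. The 10 members all passed the filter, but Adgre1, Cx3cr1, Mrc1 and Lyz2 did so through the control libraries alone, so they had to differ to be tested. All 10 were past the threshold in the lower direction, where 3.10% of tested genes were, 1.11% in the higher direction and 4.22% in either. All 3 Znf750 cKO libraries lay above all 3 controls in 8.28% of tested genes and in none of the members. Nothing is read from these counts either. With the replicate number as a block 8 were past it, all but Mrc1 and Cd68, and 5 without Znf750 cKO replicate 1, 6 without control replicate 1 and 5 without control replicate 2. The median log2 difference was -2.03 over the 10 genes and -0.08 over all tested genes.

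**Figure D2:**
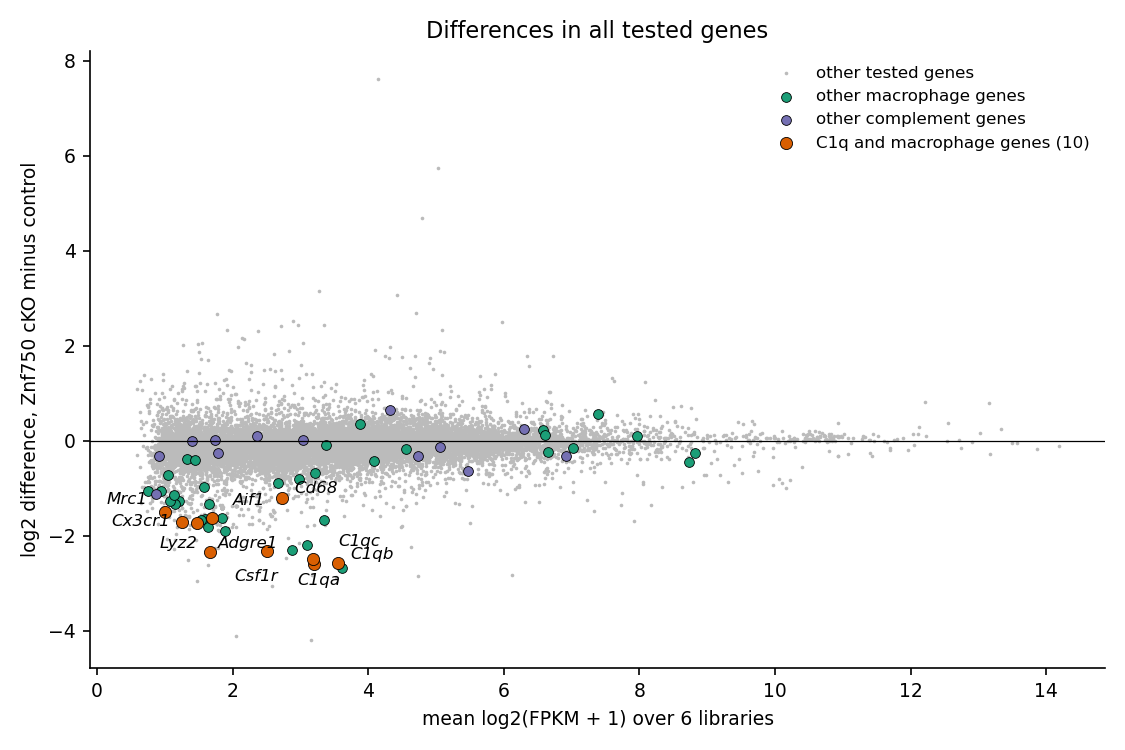
Log2 difference between the groups (Znf750 cKO minus control, log2(FPKM + 1) scale) against mean level for all 13688 tested genes, with the 10 members in orange, other macrophage genes in green and other complement genes in purple. The members lie between -2.59 and -1.19 at low to moderate levels. Genes of the macrophage list above 50 FPKM in both groups, whose cells of origin were not tested, lie between -0.45 and 0.56. Other tested genes of that list that did not pass lie between -1.06 and 0.36.

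Other macrophage genes were lower in many cases. A textbook list of 50 such genes, none of them a member, had 35 tested; 16 fell, 0 rose and 19 did not pass, where 3.10% of all tested genes fell and 1.11% rose. The tested genes had a median log2 difference of -0.89, and with no filter 49 genes had a median of -0.66, against -0.01 for all 35621 genes. Of the 35, 9 passed the filter with no Znf750 cKO library at 1 FPKM. The count that fell was 12 with the replicate block, 11 of them among the 16, 4 without Znf750 cKO replicate 1, and 10 without Znf750 cKO replicate 2, control replicate 1 or control replicate 2. It was 4 with no filter on low values and 4 of those with a mean of at least 5 FPKM.

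Tyrobp, the signalling adaptor of many myeloid receptors, averaged 3.86 ± 0.49 FPKM in Znf750 cKO and 30.1 ± 4.05 FPKM in control (log2 difference -2.67, SE 0.14, limma adjusted p = 0.00021). Among receptors and receptor chains, the Fc receptor chain Fcer1g fell 5.57-fold, the Fc receptor Fcgr3 fell 7-fold and the lipid receptor Trem2 fell 6.39-fold (limma adjusted p = 0.043, 0.011 and 0.023). With the block, Fcer1g and Trem2 did not pass (limma adjusted p = 0.090 and 0.052). Spi1, which encodes the myeloid lineage factor PU.1, had 1.00, 0.71 and 0.47 FPKM in Znf750 cKO libraries, against 5.45, 3.87 and 3.81 FPKM in control libraries (log2 difference -1.64, SE 0.20, limma adjusted p = 0.0066). Laptm5, a lysosomal protein of blood cells, fell 6.58-fold and Mpeg1, a pore-forming protein of macrophages, fell 6.98-fold (limma adjusted p = 0.0039 and 0.011). Trem2 and Mpeg1 passed the filter through the control libraries alone, so they had to differ to be tested. With no filter Fcer1g, Fcgr3, Trem2 and Mpeg1 did not pass (limma adjusted p = 0.099, 0.067, 0.11 and 0.063).

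The phagocyte NADPH oxidase makes superoxide in phagosomes, and subunits of it fell. The membrane subunits Cyba and Cybb fell 3.53-fold and 6.24-fold (limma adjusted p = 0.0069 and 0.020), and the cytosolic subunits Ncf1 and Ncf4 fell 5.21-fold and 4.69-fold (limma adjusted p = 0.014 and 0.024). Ncf4 did not pass with the block (limma adjusted p = 0.060). The pan-leukocyte gene Ptprc, the endotoxin co-receptor Cd14, the integrin chain Itgb2 and the chemokine gene Pf4 also fell (limma adjusted p = 0.020, 0.012, 0.035 and 0.048), but with the block Itgb2 and Pf4 did not pass (0.0503 and 0.085). Cybb, Ncf1, Ncf4 and Itgb2 passed the filter through the control libraries alone, so they had to differ to be tested. With no filter, Cyba was the only oxidase subunit named here to pass (limma adjusted p = 0.047), and Ptprc, Cd14, Itgb2 and Pf4 did not. Of the macrophage list genes named so far, only Tyrobp, Laptm5, Spi1, Cyba and Mpeg1 were named by rule. The rest were named after their values were seen.

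Genes of the same list that stood above 50 FPKM in both groups did not pass, among them the factor Cebpa, the lysosomal proteases Ctsb, Ctsd and Ctsl, the lectin Lgals3, the lipid carrier Apoe and the tetraspanin Cd63. Their log2 differences ran from -0.45 to 0.56. Apoe, the most abundant on average, stood at 411 ± 17.4 FPKM in Znf750 cKO and 492 ± 55.4 FPKM in control (limma adjusted p = 0.25). This division by level was made after the values were seen. Each of these abundant genes stood above every member, of which C1qb was highest at 27.8 FPKM on average in control. Which cells the RNA of the abundant genes came from was not tested. Not passing was not limited to abundant genes. Of the 27 other tested genes of the list, 16 fell and the rest did not pass. The log2 differences of the rest ran from -1.06 for Itgam to 0.36 for Stab1, the only positive one among them. Stab1 averaged 16.33 FPKM in Znf750 cKO and 11.97 FPKM in control, and Gpnmb averaged 9.27 and 10.14 FPKM. Itgam, Stab1 and Gpnmb were named with their values in view. Several further genes of the macrophage list were near the detection limit in both groups. Cd163, Lyve1, Folr2 and Timd4 did not exceed 0.14 FPKM in any library, and Marco was listed at 0 in all 6. These genes were named after their values were seen.

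Complement genes other than C1q were mostly at low levels. Of 38 listed genes, 24 averaged under 1 FPKM in both groups, 5 of these were listed at 0 in every library, and 13 were tested, of which 2 fell, 0 rose and 11 did not pass, where 3.10% of all tested genes fell and 1.11% rose. C3ar1, the receptor for the C3a fragment, had 0.35, 0.15 and 0.26 FPKM in Znf750 cKO libraries, against 1.99, 1.62 and 1.51 FPKM in control libraries (log2 difference -1.11, SE 0.18, limma adjusted p = 0.018). Clusterin, Clu, a secreted inhibitor of the terminal complement complex that many epithelia make, fell to 34.5 ± 3.41 FPKM in Znf750 cKO, against 54.2 ± 2.58 FPKM in control (log2 difference -0.64, limma adjusted p = 0.019). C3ar1 passed the filter through the control libraries alone, so it had to differ to be tested. With no filter neither C3ar1 nor Clu passed (limma adjusted p = 0.080 and 0.095). Nor did they without Znf750 cKO replicate 1 or without control replicate 1, 2 or 3 (limma adjusted p from 0.051 to 0.076).

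The proteases that C1q activates were scarce. C1s1 averaged 2.17 ± 0.41 FPKM in Znf750 cKO and 2.79 ± 0.36 FPKM in control (limma adjusted p = 0.43), and C1ra did not exceed 0.52 FPKM in any library. C2 averaged 4.35 FPKM in Znf750 cKO and 3.96 FPKM in control, C4a 1.64 and 1.65 FPKM, and C3 0.05 and 0.23 FPKM. The regulators Cr1l and Cd55 averaged 30.8 and 7.34 FPKM in Znf750 cKO and 33.9 and 7.37 FPKM in control. Calr, a chaperone that also binds C1q at cell surfaces and was the most abundant gene of the list, averaged 107 ± 4.08 FPKM in Znf750 cKO and 134 ± 12.2 FPKM in control (limma adjusted p = 0.13). These components other than Calr were named after their values were seen, and none of them passed.

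**Figure D3:**
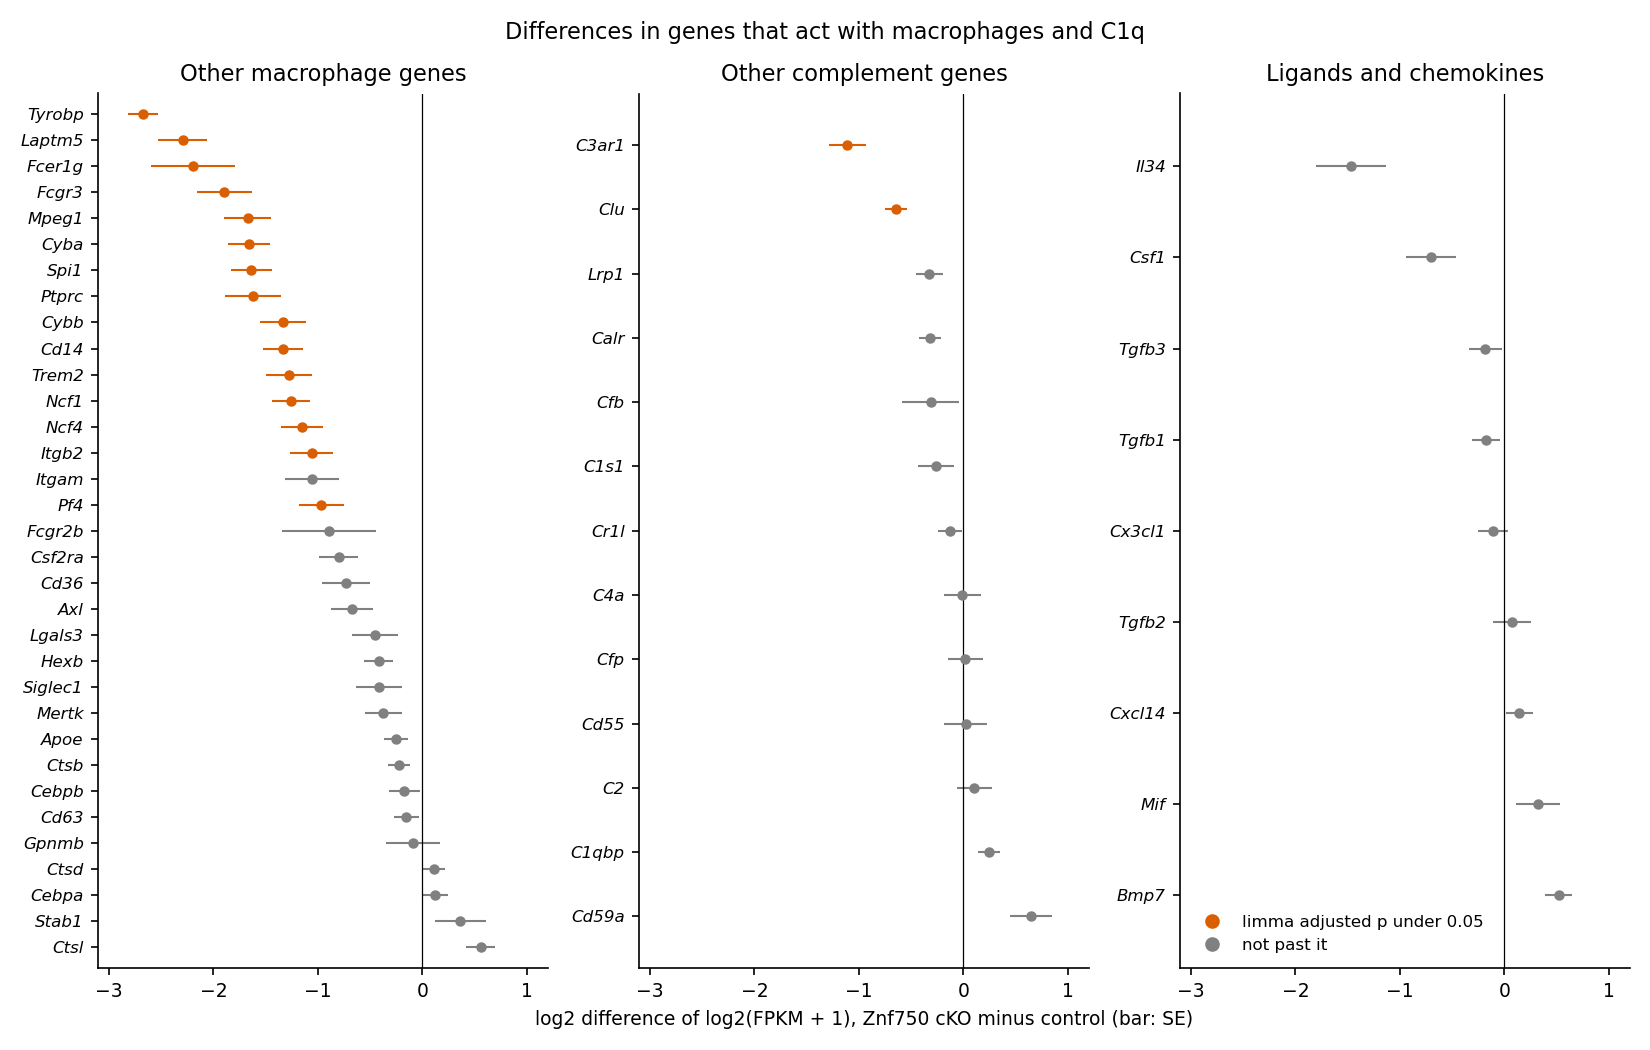
Log2 differences (Znf750 cKO minus control, log2(FPKM + 1) scale; bars are SE) of the tested genes of 3 lists, with genes at a limma adjusted p under 0.05 in orange and others in grey. All orange genes of the macrophage list, of which not every tested gene is drawn, lie below 0; in the complement list 2 of 13 genes are orange and in the ligand list 0 of 9.

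The ligands of the member receptors were measured in the same libraries. None of 9 tested ligands and chemokines passed limma. An unadjusted p under 0.05 was held by 3 of them, and by 2914 of all 13688 tested genes. Of the 3, Il34 and Csf1 were lower in Znf750 cKO and Bmp7 was higher. Bmp7 averaged 64.7 ± 4.9 FPKM in Znf750 cKO and 45.1 ± 6.9 FPKM in control (log2 difference 0.52, limma adjusted p = 0.072). Il34, the Csf1r ligand made by keratinocytes, had 6.00, 15.9 and 7.37 FPKM in Znf750 cKO libraries, against 22.9, 28.5 and 28.8 FPKM in control libraries. The groups did not overlap and the means were 2.73-fold apart (log2 difference -1.47, SE 0.33), with a limma adjusted p of 0.071. Znf750 cKO replicate 2 was the highest of its group, and without it the limma adjusted p was 0.0054, whereas it lay between 0.16 and 0.22 when any other single library was left out. Csf1, the other Csf1r ligand, had 2.28, 1.5 and 2.93 FPKM in Znf750 cKO libraries, against 5.71, 3.93 and 3.20 FPKM in control libraries (log2 difference -0.70, limma adjusted p = 0.14). Cx3cl1, the ligand of Cx3cr1, averaged 4.72 ± 0.32 FPKM in Znf750 cKO and 5.20 ± 0.76 FPKM in control (limma adjusted p = 0.72). Cxcl14, the most abundant gene of the list, averaged 471 ± 32.8 FPKM in Znf750 cKO and 428 ± 59.9 FPKM in control (limma adjusted p = 0.58). Il34, Csf1, Bmp7 and Cx3cl1 were named after their values were seen.

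Markers of other cells that a skin suspension can hold were read beside the macrophage genes. Of 23 genes of Langerhans and dendritic cells, 13 were tested, 7 fell, 0 rose and 6 did not pass, where 3.10% of all tested genes fell and 1.11% rose. With the block 3 of the 7 passed. H2-Aa, Cd86 and Clec4a2, all among the 7, passed the filter through the control libraries alone, so they had to differ to be tested, and with no filter Cd86, Clec4a2, H2-Eb1 and H2-Ab1 did not pass (limma adjusted p = 0.12, 0.15, 0.080 and 0.097). The summed level of the 23 was 131 to 139 FPKM in Znf750 cKO and 186 to 261 FPKM in control, of which Epcam, also a keratinocyte gene, made up 87.7 and 89.6 FPKM on average. The Langerhans gene Cd207 was listed at no more than 0.06 FPKM in any library at postnatal day 0, and Clec9a at 0 in all. Whether cells of the Langerhans lineage were present at this age was not tested. The antigen presentation genes Ctss, Cd74, H2-Aa, H2-Eb1 and H2-Ab1 fell 9.52-fold, 9.95-fold, 25.8-fold, 6.10-fold and 5.05-fold (limma adjusted p = 0.00065, 0.0044, 0.0038, 0.014 and 0.020), and the co-stimulator Cd86 fell 4.78-fold (limma adjusted p = 0.029). With the block H2-Eb1, H2-Ab1 and Cd86 did not pass (0.051, 0.062 and 0.051). These genes also mark macrophages that present antigen, and their part in the macrophage result was not tested.

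Among T cell genes, 0 of 5 tested passed limma and 1 had an unadjusted p under 0.05. Of all 13688 tested genes, 2914 had such a p. The 15 listed T cell genes summed to 21.6 to 33.7 FPKM in Znf750 cKO and 30.3 to 37.1 FPKM in control, and Trbc2, the most abundant, averaged 12.03 ± 2.64 FPKM in Znf750 cKO and 13.1 ± 0.43 FPKM in control (limma adjusted p = 0.69). Melanocytes, another cell type that migrates into the epidermis, had 0 of 6 genes past limma and 0 at an unadjusted p under 0.05. The melanocyte genes summed to 96.9 to 114 FPKM in Znf750 cKO and 79.0 to 142 FPKM in control, and Dct averaged 55.8 ± 1.30 FPKM in Znf750 cKO and 54.2 ± 17.8 FPKM in control (limma adjusted p = 0.87). Whether the change of the macrophage genes differs from that of T cell or melanocyte genes was not tested.

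Red cell genes were lower as well. The 7 listed genes summed to 6.92 to 11.1 FPKM in Znf750 cKO and 19.8 to 52.8 FPKM in control, and the globin Hba-a2 fell to 3.59 ± 0.46 FPKM in Znf750 cKO, against 15.3 ± 4.56 FPKM in control (limma adjusted p = 0.0055). Their part in the macrophage result was not tested. Globin copies are near-identical, so levels of single globin genes are uncertain. The other 2 tested red cell genes did not pass. An unadjusted p under 0.05 was held by 1 of them, and by 2914 of all 13688 tested genes.

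Dermal and vascular genes did not pass: 0 of 5 tested fibroblast genes and 0 of 2 tested endothelial genes passed limma, with 0 of either at an unadjusted p under 0.05. Fibroblast genes summed to 329 to 422 FPKM in Znf750 cKO and 372 to 438 FPKM in control, led by Postn at 187 ± 17.5 FPKM in Znf750 cKO and 215 ± 20.0 FPKM in control. The fibroblast genes Dcn, Fbln1 and Col1a2 averaged 141.5, 51.6 and 4.20 FPKM in Znf750 cKO and 143.2, 44.5 and 3.94 FPKM in control. Lum, Pdgfra and Twist2 of the same list stayed at or below 0.55 FPKM in all libraries. The endothelial genes Cdh5, Kdr and Tek stayed at or below 0.10 FPKM in all libraries. These fibroblast and endothelial genes, other than Postn, were named after their values were seen. Pecam1, the most abundant endothelial gene, averaged 16.5 ± 13.2 FPKM in Znf750 cKO and 16.1 ± 8.12 FPKM in control.

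For mast cells the single tested gene, Kit, which melanocytes also express, averaged 7.04 ± 2.24 FPKM in Znf750 cKO and 7.26 ± 1.47 FPKM in control (limma adjusted p = 0.92). In the neutrophil list S100a9, which keratinocytes also make, rose to 8.41 ± 2.09 FPKM in Znf750 cKO, against 2.38 ± 0.81 FPKM in control (limma adjusted p = 0.019), and did not pass without Znf750 cKO replicate 1 (0.090) or control replicate 1 (0.051). The neutrophil genes Ly6g and Ltf were listed at 0 throughout, and Mpo, Elane, Camp and Ngp did not exceed 0.28 FPKM. In the Merkel cell list Chga fell to 1.09 ± 0.21 FPKM in Znf750 cKO, against 16.6 ± 4.55 FPKM in control (limma adjusted p = 0.00045), and the other tested gene, Krt20, did not pass. None of 10 keratinocyte genes passed limma, and 2 had an unadjusted p under 0.05, as had 2914 of all 13688 tested genes. The 2 were Krt14, higher in Znf750 cKO (log2 difference 0.365), and Flg, lower (-0.83), both named after their values were seen.

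**Figure D4:**
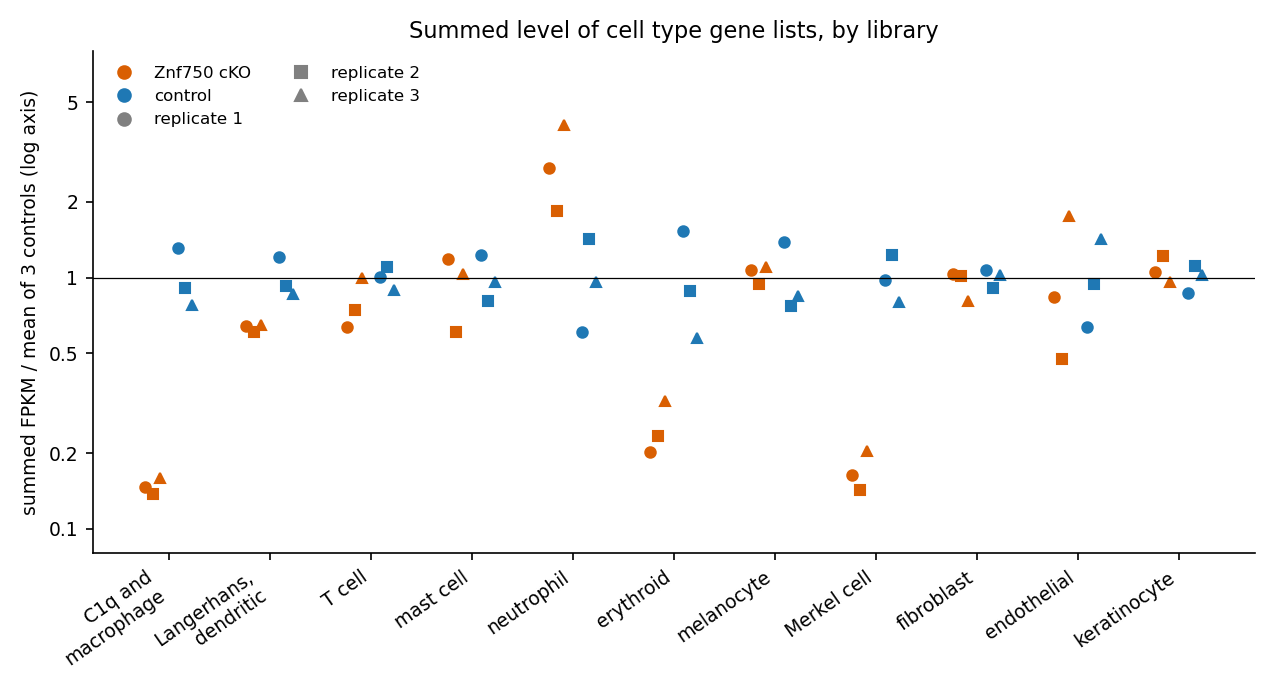
Summed FPKM of each cell type list in each library, divided by the mean of the 3 controls, on a log axis, with Znf750 cKO in orange left of control in blue and symbols for the replicate number. The sums of the 10 C1q and macrophage genes, of Langerhans and dendritic, red cell and Merkel cell genes lie below all controls in Znf750 cKO. The neutrophil sums lie above all controls, and the melanocyte, fibroblast and keratinocyte sums overlap. Chga, at 16.6 FPKM on average, made up most of the Merkel cell sums of 15.4 to 23.7 FPKM in control.

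Genes whose pattern over the 6 libraries lay closest to C1q were ranked by the root mean square difference between log2(FPKM + 1) profiles, each centred on its own mean, among 12004 genes at a mean of at least 2 FPKM. The 10 closest were Fxyd5, Cd52, Tyrobp, H2-Aa, Ctss, Lsp1, Laptm5, Coro1a, Cd74 and Krt27, at differences of 0.13 to 0.31. Fxyd5 averaged 2.39 FPKM in Znf750 cKO and 15.9 FPKM in control, and Cd52 averaged 3.01 FPKM in Znf750 cKO and 21.8 FPKM in control. Of the members beside the chains, Lyz2 lay closest to C1q at 0.14 and Csf1r next at 0.23, and Cd68 lay farthest at 0.70, with 90 ranked genes closer. The profiles share 6 libraries, and the difference between the groups makes up most of each, so the ranking is a description.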

How the data were processed

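Messenger RNA was measured in 6 libraries of newborn mouse epidermis. Per the file headers, the authors deposited FPKM, with 1 value per Ensembl gene. Per the submitters' processing notes the authors' tools included RSEM 1.2.28, STAR 2.5.2a, cutadapt 1.15 and Trim Galore 0.4.5, with the build GRCm38 and no role or order given. Their annotation and filters were not stated. Per the labels' protocols, RNA was poly(A)-selected and read as 100-nucleotide single reads.

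Symbols matched 55141 of 55487 identifiers, and coordinates are from GENCODE M21. FPKM are not counts, so limma 3.58.1 (R 4.3.3, intensity trend, robust variances, group as the only term) was run on log2(FPKM + 1). Errors beside means are SDs. Depth was estimated from single-transcript genes of 300 to 1000 bases, whose values should be whole multiples of a read: 69.1% to 78.3% lay within 0.1 read of a whole number, where chance gives 20%. Approximate reads use the longest transcript and cover counting error only.

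The members and lists were chosen with earlier results of these data known. Named genes are the members, the most abundant tested gene and up to 6 genes past the threshold per list, and the 10 profiles most like C1q. Some genes that the rule or the lists hold are not reported here. Same-numbered libraries correlated at 0.31, 0.17 and 0.48 for numbers 1, 2 and 3 after group means were removed, above the 0.1 set for pairing. A fit with the replicate block was therefore run beside the main one. Znf750 cKO 2 with control 1, which differ in number, also stood above it at 0.24, and the other unlike-numbered pairs were negative. Deviations from a group mean cancel within the group, so positive pairs oblige negative ones, and nothing is read from the negative signs. What a replicate number marks is not in the labels. The alternatives were another pseudocount (0.1), no filter, a mean FPKM of at least 5, median-ratio and TPM scaling, plain variances, the block, each library left out, and replicate 3 of both groups left out. Plots used Python 3.11.15 and matplotlib 3.10.9.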

Additional observations from a re-analysis of the deposited data

How the results depend on the processing

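The log2 differences of 4 genes, none past the threshold in either fit, changed sign: with each library left out, Pecam1 (-0.16) ran from -0.75 to 0.41, Kit (-0.06) from -0.24 to 0.18, Dct (0.09) from -0.089 to 0.34 and Epcam (-0.03) from -0.082 to 0.017, Dct was -0.00077 without replicate 3 of both groups, and Epcam was 0.039 with median-ratio scaling; the cause was not tested. No member changed sign. For the 10 members, the median log2 difference was -2.84 with a pseudocount of 0.1, -2.48 over the 5 with a mean of at least 5 FPKM, and -2.22 to -1.77 with each library left out; 5 members passed with no filter, 5 with the mean filter, and 5 to 10 with each library left out. The 425 lower and 152 higher genes became 54 and 31 with no filter, 256 lower with the replicate block and 230 lower with the mean filter, 95 higher without replicate 3 of both groups, and 66 to 259 lower and 34 to 110 higher with each library left out, 66 and 34 being without Znf750 cKO replicate 1. Median-ratio scaling gave 307 lower and 216 higher. Of macrophage genes beyond the members, 4 fell with no filter, 4 with the mean filter, and 4 to 15 with each library left out. Complement genes gave 0 with no filter, 1 with the mean filter, 0 without replicate 3 of both groups, and 0 to 2 with each library left out. Of the ligands 1 was higher with median-ratio scaling, and 0 to 1 were lower with each library left out. Markers of other cell types that fell numbered 5 with no filter, 5 with the mean filter, 5 with the block, and 5 to 8 with each library left out; those that rose numbered 0 with no filter and 0 to 1 with each library left out. The no filter setting tests more genes, and the mean filter fewer; the cause of the other moves was not tested. Lyz2 and Aif1 rest on about 11 to 33 reads in each Znf750 cKO library.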
